A study of Mus musculus with 4 samples.

Results

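Junction spots were the capture spots of uninjured mouse muscle that were richest in transcripts of the neuromuscular junction, the contact between a motor nerve ending and a muscle fibre. Spatial RNA counts came from 1 fresh frozen section of tibial muscle of Nse-Bmp4 mice (strain C57BL/6, 6 to 8 weeks old) that had not been injured (day 0). These animals carry a Bmp4 transgene driven by the neuron specific enolase promoter, which leads to bone formation in muscle after injury, and the transgene was present in every section of the series, so no section without it was compared. The 3 other sections came from tibial muscle of the same genotype 1, 3 and 7 days after cardiotoxin injury, a venom injection that destroys muscle fibres. Per the labels, 3 muscles were mixed for a group, and which of them a given section shows is not known from the sources used here.

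A spot was scored by the summed unique molecular identifiers (UMIs, 1 per captured transcript) of Chrne, Colq, Ufsp1 and Etv5 divided by all UMIs of the spot. Of 2107 spots on the day 0 section, 2090 held at least 2000 UMIs, and the 84 spots at or above the 96th percentile of the score, 438.8 marker UMIs on the counts-per-million scale (CPM), were taken as junction spots. The other 2006 spots of the section were the comparison, and the series held 10835 spots in all. A spot covers several cells or stretches of fibre, so a level is that of a small region, and more cells of a type and more RNA per cell cannot be told apart. With 1 section per day, spots are not replicates. No test was run. Intervals in parentheses are exact 95% intervals that cover counting error only.

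At the junction the fibre membrane is packed with acetylcholine receptors, which open when the nerve releases acetylcholine. Agrin from the nerve acts through LRP4 and the kinase MuSK to cluster the receptors by way of rapsyn, and acetylcholinesterase, held in the cleft by the collagen tail ColQ, ends the signal. The few fibre nuclei beneath the ending transcribe synaptic genes, in part through ETS factors that bind a promoter element called the N-box, while E-boxes are bound by myogenic factors. Terminal Schwann cells cap the ending, and myelinating Schwann cells wrap the axon up to it.

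Of the receptor genes shown here, Chrne carried the letters of both elements within the 250 bases before its start, and Chrna1 those of the E-box only. These stretches are printed because Chrne was part of the score and Chrna1 had the highest ratio among the receptor genes outside it. Sequences were taken from the RefSeq promoter table (GRCm38.p6) and run 5′ to 3′ on the coding strand. Capitals mark CCGGAA (the N-box core searched) and CAGCTG (an E-box), each searched on both strands.
Chrne: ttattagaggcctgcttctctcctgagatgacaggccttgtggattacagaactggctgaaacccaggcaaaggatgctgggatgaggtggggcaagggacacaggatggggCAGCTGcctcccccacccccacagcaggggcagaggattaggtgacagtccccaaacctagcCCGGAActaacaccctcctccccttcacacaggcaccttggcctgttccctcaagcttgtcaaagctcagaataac
Chrna1: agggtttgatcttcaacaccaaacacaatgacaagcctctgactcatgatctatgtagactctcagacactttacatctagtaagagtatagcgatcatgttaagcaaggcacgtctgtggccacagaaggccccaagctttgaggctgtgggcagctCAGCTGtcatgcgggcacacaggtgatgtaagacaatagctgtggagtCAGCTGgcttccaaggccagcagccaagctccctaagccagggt
The Chrne stretch lies at chr11:70619195-70619444 on the minus strand, with the N-box 76 to 71 bases and the E-box 138 to 133 bases before the start used by the table. The Chrna1 stretch lies at chr2:73580339-73580588 on the minus strand and holds the E-box letters at 92 to 87 and at 44 to 39 bases before the start. CCGGAA was found in 12.0% and CAGCTG in 13.0% of all 32851 promoter stretches of the same length. Among the 37 genes of the score and of the receptor, clustering, cleft and subsynaptic lists, 26 had an entry. Of these, 2 held CCGGAA (7.69%, Chrne and Prkar1a) and 9 held CAGCTG (34.6%), against 13.6% and 14.7% of the 27025 genes in the table. A match of letters is a description and not a site of binding.

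The markers chose the spots, so their levels are given as a description. Chrne encodes the adult epsilon subunit of the receptor, Colq the collagen tail of acetylcholinesterase, Ufsp1 a UFM1-specific peptidase and Etv5 an ETS factor. Their summed level was 961 CPM in the junction spots and 59.2 in the other spots, and the junction spots held 39.6% of the marker UMIs of the eligible spots on 3.89% of all their UMIs. Ufsp1 gave 41.2% of the marker UMIs of the junction spots. Chrne was seen in 72 of the 84 spots, Colq in 58, Ufsp1 in 77 and Etv5 in 63. All 4 markers were seen in 44 junction spots, 3 in 19, 2 in 16 and 1 in 5. Among the other spots, 34 of 2006 showed all 4 and 901 showed none.

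The choice rested on few counts in part of the spots. The marker UMIs of a junction spot ran from 2 to 117 with a median of 14, and 11 spots were chosen on exactly 2. Total UMIs ran from 2049 to 46554 in the junction spots (median 21889) and from 2010 to 64283 in the others (median 21078.5). The lowest scores inside the threshold were 438.846, 439.271 and 448.926 CPM, and the highest outside were 438.789, 431.353 and 429.443. The first spot outside had 2 marker UMIs of 4558.

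**Figure D1:**
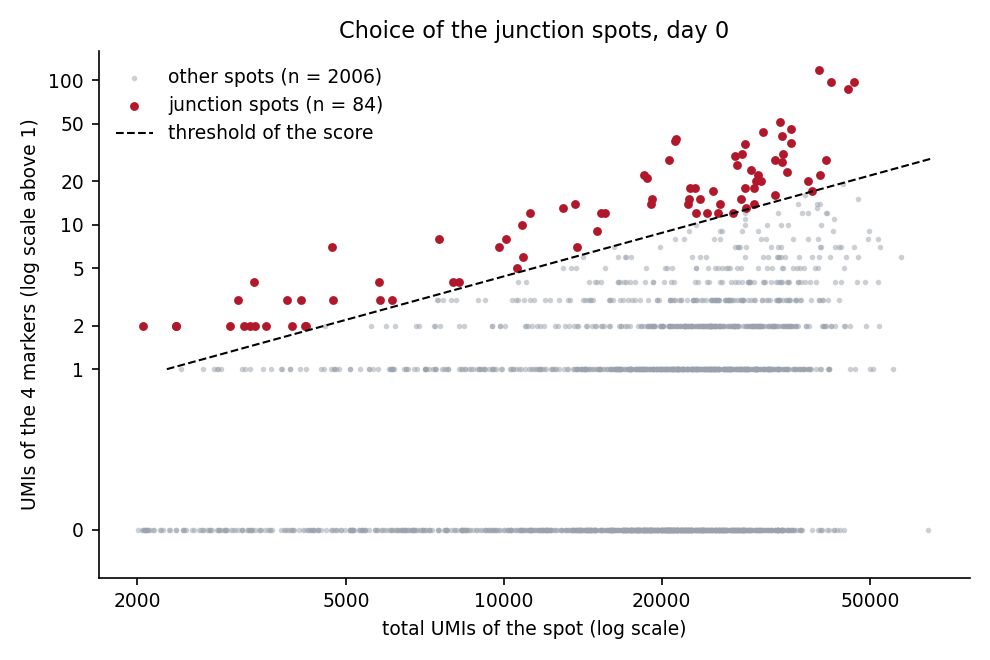
Each point is a spot of the day 0 section with its total UMIs (x axis, log scale) and its UMIs of the 4 markers (y axis, log scale above 1), with the 84 junction spots in red, the 2006 other spots in grey and the threshold of 438.8 CPM as a dashed line. Junction spots with under 5000 UMIs sit at 2 to 7 marker UMIs, while those above 20000 UMIs reach 117.

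Each marker was also measured in spots chosen without it. In the 84 spots chosen by the other 3 markers, Chrne was 15.9-fold higher than in the remaining spots (13.8 to 18.2), and 72 of these 84 were also junction spots by the full score. Colq was 16.1-fold higher (13.5 to 19.3), Ufsp1 11.3-fold (10.2 to 12.5) and Etv5 12.8-fold (11.0 to 14.7). Each marker was thus high in spots where the other 3 were high. The spots chosen without Colq, Ufsp1 and Etv5 included 73, 65 and 73 junction spots in that order. The markers were chosen with earlier results of these data known, so these ratios are a description and not an independent check. Ufsp1 (chr5:137294669-137295664) lies 202 bases past the end of Ache (chr5:137288247-137294466) on the same strand. With Ufsp1 left out of the score, Ache was 6.56-fold higher in the chosen spots (5.68 to 7.55), and with all 4 markers it was 6.13-fold higher.

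Over the whole transcriptome, 9280 genes outside the score had at least 200 UMIs in the eligible spots, and 10.2% of them were at least 1.5-fold higher in the junction spots and 2.92% at least 1.5-fold lower. At 2-fold these shares were 1.97% and 0.905%. A gene past 1.5-fold is called higher or lower from here on. The abundant fibre transcripts were slightly lower in the junction spots and the median log2 ratio of all genes was 0.15. TMM scaling, which sets the bulk of genes to no change, lowered every log2 ratio by 0.21 and turned the split of 949 genes higher and 271 lower into 414 and 603. DESeq2 size factors gave 419 and 592. Counts of called list members under TMM scaling are to be read against the 414 and 603 of 9280 genes.

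The acetylcholine receptor subunits were 6.15-fold higher in the junction spots (5.65 to 6.68), and both subunits with 200 UMIs were called higher. Chrna1, the alpha subunit that binds acetylcholine, was seen in 67 of 84 junction spots and 648 of 2006 others. Its counts ran from 0 over a median of 5 to 39 UMIs in the junction spots and from 0 over a median of 0 to 9 in the others. Over all spots its level was 305.6 CPM against 24.8, a 12.3-fold ratio (11.1 to 13.7). The ranges overlapped, since 17 junction spots had no Chrna1 UMI. Chrnb1, the beta subunit, was at 78.6 against 37.9 CPM, 2.07-fold (1.72 to 2.47). Chrnd, the delta subunit, was sparse, with 31 UMIs in the junction spots and 79 in the others, which gave 9.70-fold (6.19 to 14.9). Chrng, the foetal gamma subunit that Chrne replaces after birth, had 1 UMI in the junction spots and 38 in the others, and at this depth no difference was detectable (ratio 0.651, 0.0161 to 3.85). Chrna1 gave 521 of the 687 receptor list UMIs in the junction spots. The effect of leaving it out was read only for the receptor and clustering lists together. These gave 3.90-fold (3.62 to 4.20), and 1.83-fold without Chrna1.

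The agrin-MuSK clustering list differed little as a sum, although its sparse members Musk and Lrp4 had intervals above 1. The list stood at 86.8 CPM in the junction spots and 59.9 in the others, a 1.45-fold ratio (1.22 to 1.71). Of its 3 members with 200 UMIs, 0 were called, where 10.2% of all genes were higher and 2.92% lower. So few members cannot set this count apart from those shares. Agrn, which nerve, muscle and Schwann cells can all make, was 1.44-fold higher (1.07 to 1.91). Dok7, an activator of MuSK, and Rapsn, the receptor scaffold, gave 1.23-fold (0.875 to 1.68) and 1.31-fold (0.918 to 1.83), and both intervals include 1. The kinase gene Musk had only 8 UMIs in the junction spots and 39 in the others (5.07-fold, 2.05 to 11.0), and the agrin receptor gene Lrp4 had 11 and 91 (2.99-fold, 1.44 to 5.60). The median log2 ratio over the 3 counted members was 0.39, against 0.15 over all genes.

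In the synaptic cleft list, acetylcholinesterase stood apart from the matrix genes. Ache was at 142 CPM in the junction spots and 23.2 in the others, 6.13-fold (5.30 to 7.06). It was seen in 56 of 84 junction spots with up to 21 UMIs, and in 679 of 2006 others with up to 6. Lamb2, the laminin beta2 chain concentrated in synaptic basal lamina, was 1.505-fold higher (1.34 to 1.68), and Col4a4 1.81-fold (1.04 to 2.96). Col4a3, its partner chain, had 12 UMIs against 91 (3.26-fold, 1.62 to 5.98). The laminin genes Lama4 and Lama5, nidogen Nid2 and perlecan Hspg2 ranged from 1.13-fold to 1.44-fold. As a whole, 3 of 7 counted members were called higher (2 under TMM scaling, without Lamb2) and 0 lower, against 10.2% and 2.92% of all genes. The summed list was 1.58-fold higher (1.49 to 1.67).

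The subsynaptic list, genes of the nuclei and scaffold beneath the ending, was 4.59-fold higher (4.41 to 4.78). Of its 10 counted members 7 were called higher and 0 lower, against 10.2% and 2.92% of all genes. Under TMM scaling 4 of 10 (Prkar1a, Phldb2, Hs6st2 and Nes) were called higher. Prkar1a, a regulatory subunit of protein kinase A, carried most of the list. Its counts ran from 0 over a median of 15 to 139 UMIs in the junction spots, and from 0 over a median of 2 to 40 in the others, or 1030 against 119 CPM (8.68-fold, 8.21 to 9.16). Most spots of both kinds held some Prkar1a transcript (72 of 84 and 1602 of 2006), so the spots differed in amount more than in presence. Nes, the intermediate filament nestin, was 5.34-fold higher (4.81 to 5.91), with a median of 3.5 UMIs in a junction spot and 1 elsewhere.

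Of the other members, 3 had ratios above 6-fold and those with 200 UMIs otherwise ran from 1.12-fold to 1.67-fold. Hs6st2, a heparan sulfate sulfotransferase, was 10.3-fold higher (7.92 to 13.3) and was seen in 40 of 84 junction spots and 179 of 2006 others. Phldb2, which anchors microtubules below the receptor clusters, was 6.37-fold higher (5.01 to 8.02). Pdzrn4, with a PDZ and a RING domain, had 13 of its 20 UMIs in the junction spots, a 45.9-fold ratio with a wide interval (17.02 to 136). Ank3, the ankyrin that holds sodium channels in place, was 1.67-fold higher (1.37 to 2.02). Utrn, the utrophin of the postsynaptic membrane, was 1.61-fold higher (1.21 to 2.09) and Gramd1b, a lipid transfer protein, 1.58-fold (1.203 to 2.04). The channel gene Scn4a was at 1.39-fold (1.04 to 1.84) and the dystrobrevin gene Dtna at 1.12-fold (0.911 to 1.36), and neither was called. Vav3 and Syne1 had under 10 UMIs each in the junction spots, and their intervals span 1. Sntb2, a syntrophin, gave 1.34-fold (0.828 to 2.05), and Lrfn5 and Ano2 had 0 and 1 UMIs in the junction spots. Without Prkar1a the cleft and subsynaptic lists together fell from 2.82-fold (2.73 to 2.91) to 1.90-fold.

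Among the ETS and neuregulin genes, Etv4, the close relative of the marker Etv5, had 64 UMIs in the junction spots and 93 in the others (17.01-fold, 12.2 to 23.6) and was seen in 33 of 84 and 83 of 2006 spots. Dusp6, a phosphatase of ERK that ERK signalling itself induces, was 5.63-fold higher (4.71 to 6.69). The neuregulin receptor gene Erbb3, also used by Schwann cells, had 21 UMIs against 87 (5.97-fold, 3.52 to 9.70). Gabpa, the ETS factor first tied to the N-box, was 1.51-fold higher (1.05 to 2.11), close to the limit of a call, while its partner Gabpb1 was at 1.11-fold (0.524 to 2.08). Of 5 counted members of the list 3 were called higher (Dusp6, Gabpa and Spry4) and 0 lower, against 10.2% and 2.92% of all genes. Spry4 was at 1.55-fold with an interval that includes 1 (0.978 to 2.33). Only Dusp6 was called under TMM scaling, and the list ratio was 3.14-fold (2.81 to 3.502). No UMI of Nrg1 was counted in any eligible spot, and a count of 0 allows a level of up to 0.0684 CPM when the limit is set at 3 counts of the total.

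**Figure D2:**
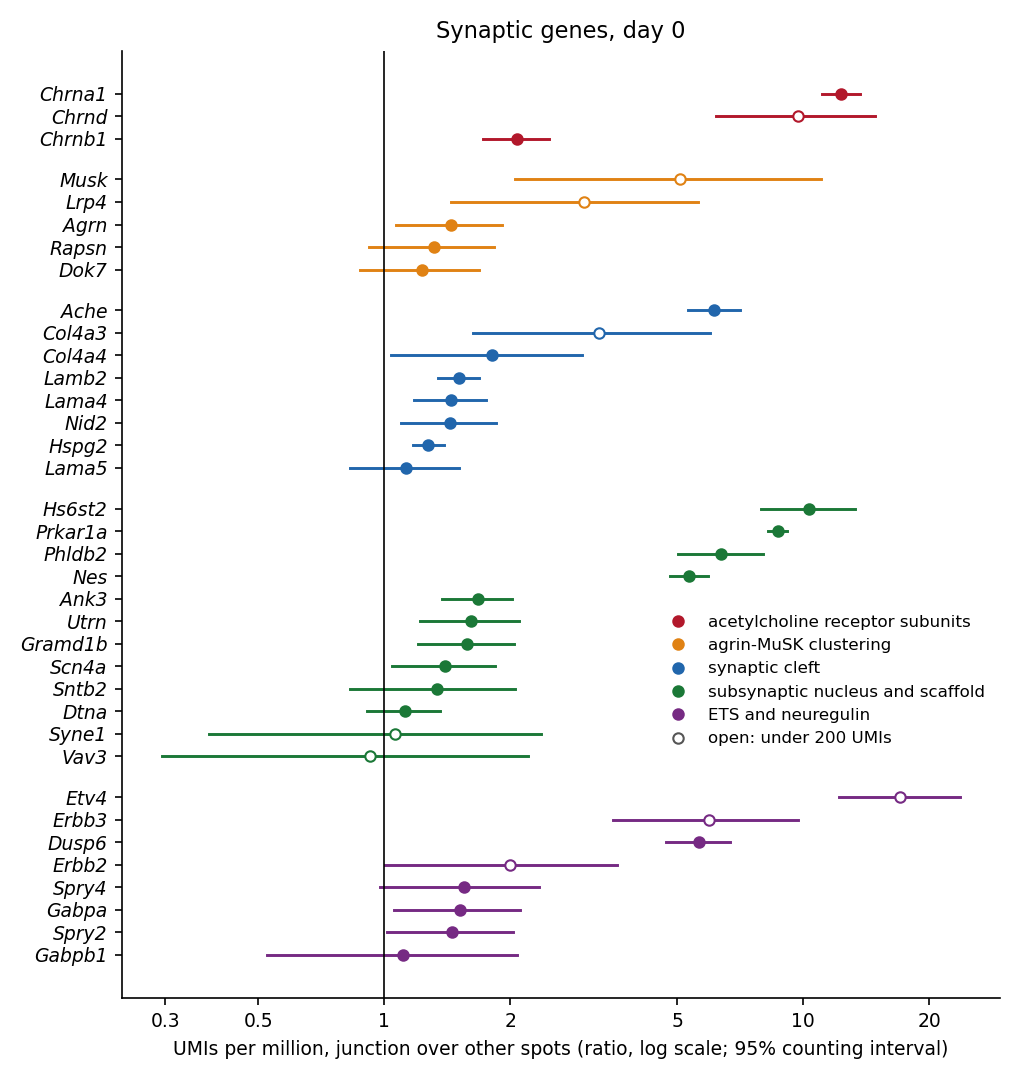
Ratio of CPM in the 84 junction spots over the 2006 other spots (x axis, log scale) for genes of the 5 synaptic lists with at least 40 UMIs, with bars for the 95% counting interval and open circles for genes under 200 UMIs. Chrna1, Chrnd, Musk, Ache, Hs6st2, Prkar1a, Phldb2, Nes, Etv4, Erbb3 and Dusp6 lie above 5-fold, while Agrn, Rapsn and Dok7 lie between 1.23-fold and 1.44-fold.

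The levels of these lists were also read along the score, below the threshold as well as above it. In the 901 spots with no marker UMI the receptor list was at 59.3 CPM, and in the 771 marked spots up to the 80th percentile it was at 57.9. It then stood at 88.7 in the 80th to 90th percentile, 131 in the 90th to 96th, 278 in the 96th to 98th and 517 from the 98th on. The subsynaptic list went from 329 over 615 just below the threshold to 2254 in the top bin. Spots just under the threshold were thus already above the base level, and the 96th percentile cut a slope and not a gap. The clustering list moved far less, from 59.7 in spots without a marker UMI to 94.0 in the top bin.

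**Figure D3:**
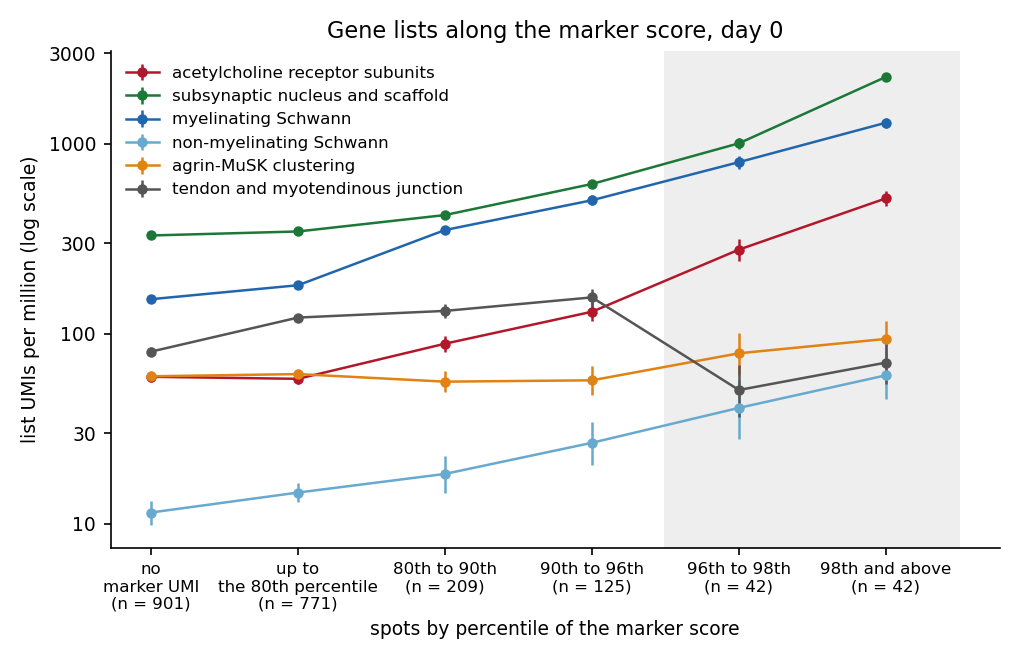
Summed CPM of 6 gene lists (y axis, log scale, bars for the 95% counting interval) in spots grouped by the percentile of the marker score (x axis, with the number of spots), the junction spots being shaded. The receptor list rises from 59.3 to 517 and the myelin list from 152 to 1293, while the tendon list drops from 155 just below the threshold to 50.6 just above it.

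The ratios were smaller in shallow spots, which were chosen on fewer marker UMIs. Among spots with 2000 to 10000 UMIs, 24 of 347 were junction spots (6.92%), chosen on a median of 3 marker UMIs, and their receptor list was 2.06-fold higher than in other spots of that depth (1.19 to 3.37). With 10000 to 20000 UMIs there were 15 junction spots with a 5.20-fold ratio (4.04 to 6.61), and with 20000 or more there were 45 with a 6.71-fold ratio (6.11 to 7.36). Prkar1a gave 2.65-fold, 6.42-fold and 9.66-fold in the same order. Reweighting the other spots to the depth of the junction spots left the joint receptor and clustering ratio at 3.87-fold.

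Schwann cell transcripts were the other large difference. The myelinating Schwann list was 5.17-fold higher in the junction spots (4.91 to 5.44). All 6 of its counted members were called higher, where 10.2% of all genes were. Mbp, the myelin basic protein, was at 188 CPM against 30.2 (6.22-fold, 5.48 to 7.04), with counts from 0 over a median of 2 to 36 in junction spots and from 0 over a median of 0 to 41 in the others. Prx, the periaxin of myelin, was higher by 7.58-fold (5.59 to 10.1), and Pmp22, which other cells also make, 3.22-fold (2.94 to 3.54). The non-myelinating Schwann list was 3.54-fold higher (2.79 to 4.43), although Scn7a, a sodium channel gene and its only member with 200 UMIs, was at 1.41-fold (0.875 to 2.17) and not called. The excess lay in sparse members: Sox10, the lineage factor of all Schwann cells, had 30 UMIs against 57 (13.0-fold, 8.07 to 20.6), and Cdh19, a cadherin of Schwann cells and their precursors, 12 against 21 (14.1-fold, 6.34 to 30.1).

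Transcripts of the axon itself were few in a section that holds no motor neuron cell bodies, which lie in the spinal cord. The axon and nerve terminal list gave 19 UMIs in the junction spots, 17 of them from Stmn2, and its ratio of 1.45-fold had an interval that spans 1 (0.864 to 2.31). For 5 of its 11 genes, Nefl, Chat, Syt2, Slc5a7 and Slc18a3, 0 UMIs were counted in the eligible spots.

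Junction spots and myelin-rich spots overlapped in part. The 84 spots with the highest share of myelin transcripts (the top 4%) included 24 junction spots, or 28.6% of each set, against 4.02% of all eligible spots. The receptor list was at 470 CPM in these 24, at 370 in the 60 junction spots that were not myelin-rich, at 81.0 in the 60 myelin-rich spots outside the junction set and at 65.2 in spots that were neither. Prkar1a gave 1198, 947, 228 and 116 in that order. Both groups of junction spots were thus far above the myelin-rich spots outside the set, in which Prkar1a was nevertheless above its level in spots that were neither. Only 4 junction spots had no UMI of the myelin list, too few for a ratio. Leaving out the 24 myelin-rich spots gave 3.60-fold for the receptor and clustering lists and 2.59-fold for the cleft and subsynaptic lists.

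The same split was read for genes chosen by their ratio alone. Ranked among 6312 genes with at least 500 UMIs, the 20 highest included 7 genes of the lists, among them Chrna1, Prkar1a, Mbp, Ache, Dusp6 and Nes, and 13 others. Kcne1l, an accessory subunit of potassium channels on the X chromosome, came first at 191 CPM against 9.47 (20.1-fold, 17.3 to 23.4). It was seen in 54 of 84 junction spots, with up to 34 UMIs, and in 258 of 2006 others, with up to 9. Its level was 296 in myelin-rich junction spots, 139 in other junction spots, 33.5 in other myelin-rich spots and 8.84 elsewhere.

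Pla2g7, which breaks down platelet-activating factor, varied little with the myelin share. It was 7.85-fold higher (6.85 to 8.98), at 176 and 163 CPM in junction spots with and without much myelin, and at 21.4 and 21.3 in other spots with and without it. Lrtm1, a leucine-rich repeat membrane protein whose gene lies within the span of Cacna2d3 on the other strand, was 6.66-fold higher (5.82 to 7.61), at 212, 140, 26.1 and 24.5 in the same order. Ptx3, a secreted pentraxin, was 4.94-fold higher (4.01 to 6.06), at 92.6, 54.2, 14.9 and 13.5. Cd24a, a small surface glycoprotein, was 8.18-fold higher (7.46 to 8.96), at 392, 357, 94.0 and 43.8.

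Sfrp5 and Apod were also high in myelin-rich spots outside the junction set. Sfrp5, a secreted Wnt antagonist, was 9.11-fold higher in the junction spots (7.43 to 11.1), yet it stood at 101 CPM in myelin-rich spots outside the junction set and at 36.7 in junction spots that were not myelin-rich, with 167 where both held and 6.36 where neither did. Apod, a secreted lipid carrier, was 8.68-fold higher (7.88 to 9.55), at 527, 241, 140 and 36.0 in myelin-rich junction, other junction, other myelin-rich and remaining spots. Its highest junction spot had 88 of the 572 UMIs, and without that spot the ratio was 7.55-fold.

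**Figure D4:**
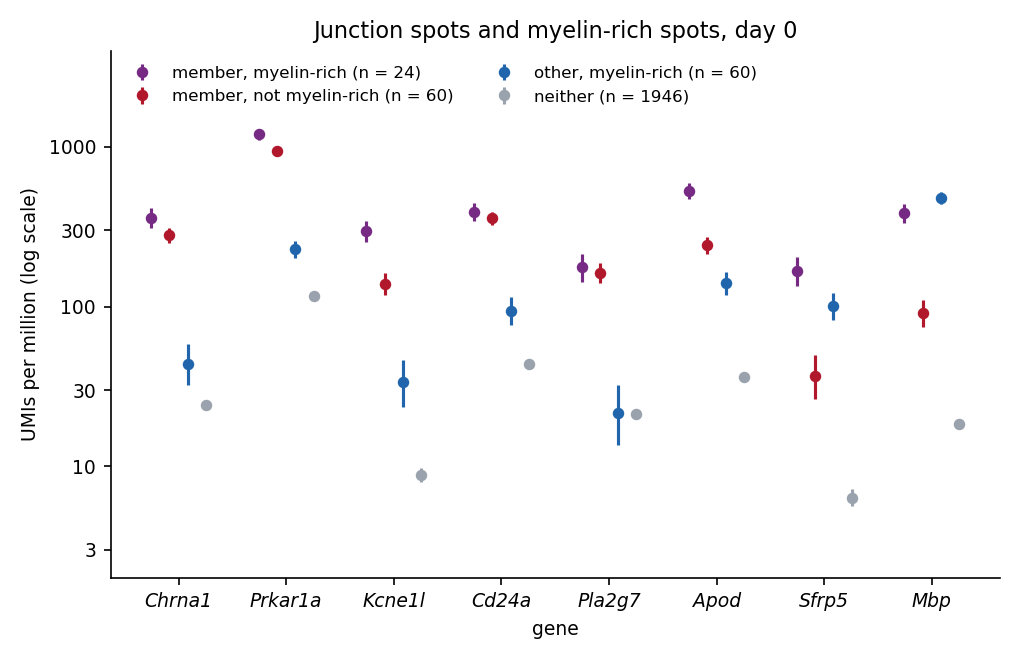
CPM (y axis, log scale, bars for the 95% counting interval) of 8 genes in junction spots (member) and other spots, each split by whether the spot is among the top 4% of the myelin share. Pla2g7 separates by the score alone (176 and 163 against 21.4 and 21.3), while Sfrp5 is higher in other myelin-rich spots (101) than in junction spots that are not myelin-rich (36.7).

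Among the remaining genes of the 20 highest, Dlk1, a membrane protein related to Notch ligands, was 4.99-fold higher (4.03 to 6.13), and Kcnj12, an inward rectifier potassium channel of muscle, 4.65-fold (3.83 to 5.61). Pola2, a subunit of the DNA polymerase alpha complex, was 3.83-fold higher (3.10 to 4.69), the growth factor gene Fgf1 3.76-fold (2.87 to 4.86) and the glypican Gpc4 3.48-fold (2.79 to 4.30). No single spot carried these values: the spot with most UMIs held between 6.06% (Gpc4) and 15.4% (Apod) of the UMIs in the junction spots of each gene named here from the 20 highest.

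The 10 genes with the lowest ratios rested on few UMIs. Their ratios ran from 0.364 to 0.497, on 8 to 18 UMIs each in the junction spots, and none belonged to a list. Sfrp2, a Wnt antagonist of fibroblasts, was lowest with 10 UMIs against 679 (0.364, 0.174 to 0.674), and Hbegf, an EGF family growth factor, had 18 against 994 (0.448, 0.264 to 0.711). The others were Suz12, Lcp1, Ankrd11, Gm39469, Cdc14a, Tbc1d1, Nupr1 and Hist1h2be.

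Genes known to rise along the fibre when its nerve is cut were measured as a denervation list. It was 1.77-fold higher in the junction spots (1.60 to 1.96), with 2 of 4 counted members called higher, where 10.2% of all genes were. Ncam1, an adhesion molecule kept at the junction in innervated muscle and also made by Schwann cells, had 71 UMIs in the junction spots and 190 in the others (9.24-fold, 6.93 to 12.2), and stood at 60.5 CPM in myelin-rich junction spots, 32.4 in other junction spots and 6.51 in other myelin-rich spots. Myog, a myogenic factor, was 1.77-fold higher (1.49 to 2.09). Gadd45a and Hdac4 were at 1.38-fold and 1.39-fold, and Runx1 had 5 UMIs in the junction spots (0.723, 0.232 to 1.72).

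Fibre type differed little between junction and other spots. Myh4, the myosin of fast IIb fibres, gave 89.4% of the UMIs of the 4 adult myosin genes in the junction spots and 90.4% in the others, and Myh2 (IIa) gave 2.55% and 1.76%. The slow fibre list was 1.26-fold higher (1.19 to 1.32), with 0 of 8 members called, where 10.2% of all genes were higher and 2.92% lower. One junction spot held 358 of the 1496 slow fibre UMIs, 70 of them from Myh7, and without it the ratio was 0.970 (0.914 to 1.03), on the other side of 1. With the score taken without Etv5 the slow ratio was 0.816, and from the 98th percentile of the score on it was 0.976. The IIa myosin Myh2 was 1.27-fold higher (1.202 to 1.34) and 0.931-fold when the other spots were reweighted by slow fibre share. Myh1, the IIx myosin, was at 0.897-fold (0.870 to 0.924). The fast IIb list was slightly lower, at 0.930-fold (0.925 to 0.935), with Myh4 at 0.868-fold and Pvalb, the parvalbumin of fast fibres, at 1.09-fold.

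A second single spot stood out by genes of intrafusal fibres, the small fibres inside muscle spindles, whose sensory endings also induce ETS factors. It held 31 of the 38 intrafusal UMIs of all junction spots (14 of Myh7b, 8 of Myh6, 5 of Myh8 and 4 of Egr3) among 23635 UMIs in all. It entered the set with 13 UMIs of Etv5 and 2 of Chrne and none of Colq or Ufsp1, and it had 3 UMIs of Chrna1 and 7 of Prkar1a. The list ratio of 2.88-fold (2.003 to 4.04) became 0.538 (0.215 to 1.12) without this spot. Among the other spots the highest intrafusal counts were 29, 14 and 9.

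As summed lists, the other tissue components given here ran from 0.559-fold to 1.17-fold. The satellite cell and adipocyte lists were higher than these and follow below. Tendon and myotendinous junction genes were 0.559-fold (0.456 to 0.679), with 4 of 4 counted members called lower, where 2.92% of all genes were. The tendon ratio was, however, 1.08 when the threshold was set at the 90th percentile, where spots with more tendon transcripts entered. Col22a1, a collagen of the muscle-tendon contact, had 5 UMIs against 373 (0.331, 0.107 to 0.780), and Thbs4 78 against 3127 (0.617, 0.486 to 0.772). The adult myofibre list was 0.892-fold (0.889 to 0.895). Endothelial genes gave 1.01-fold (0.929 to 1.10), smooth muscle genes 0.884-fold (0.804 to 0.969), macrophage genes 1.17-fold (1.04 to 1.31) and immediate early genes 1.05-fold (0.877 to 1.24). The summed fibroblast list was 1.06-fold higher (1.04 to 1.08), a direction that turned to 0.920 under TMM scaling. Its collagen genes Col1a1, Col1a2 and Col3a1 ran from 0.977-fold to 1.05-fold. Pdgfra was 1.52-fold higher (1.15 to 1.96), Lum 1.49-fold (1.33 to 1.66) and Dcn 1.44-fold (1.36 to 1.52). Only Pdgfra was called higher, and none was under TMM scaling.

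Satellite cell genes were 1.46-fold higher (1.15 to 1.82) on 82 UMIs. Cdh15 gave 34 of them (1.12-fold, 0.767 to 1.57) and Chodl 28 (1.70-fold, 1.12 to 2.50). Myf5 gave 12 against 83 (3.57-fold, 1.78 to 6.58) and Pax7 5 against 98 (1.26-fold, 0.401 to 3.04). Without the spot with most intrafusal UMIs the list was at 1.35-fold (1.06 to 1.71), and under TMM scaling no member was called. Adipocyte genes were 1.27-fold higher (1.21 to 1.33), with Cfd at 2.13-fold (1.95 to 2.32), Retn at 2.34-fold (1.84 to 2.94) and Fabp4 at 1.03-fold (0.968 to 1.09). One junction spot held 406 of the 1951 adipocyte UMIs and 238 of the 583 Cfd UMIs. Without it the list was at 1.03-fold (0.976 to 1.08) and Cfd at 1.29-fold (1.15 to 1.44), and none of the 4 members called higher with it was called.

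Within the junction spots, synaptic genes varied together. Over the 84 spots, the Spearman correlation of CPM was 0.64 between Chrna1 and Prkar1a, 0.64 between Prkar1a and Ache and 0.57 between Prkar1a and Nes. It was 0.54 between Chrna1 and Ache, and 0.52 between Chrna1 and Kcne1l, a gene of none of the synaptic lists. In the 60 junction spots with at least 10000 UMIs these were 0.60, 0.62, 0.65, 0.62 and 0.37 in the same order. These are descriptions over spots of 1 section that share the division by their own total. The highest scoring spot, with 117 marker UMIs of 39980, also had the most UMIs of Chrna1 (39 UMIs) and Prkar1a (139 UMIs).

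The same rule was applied to the 3 sections of injured muscle, each with its own 96th percentile, which gave 87, 121 and 118 marker-high spots on days 1, 3 and 7. The thresholds were 242, 236 and 439 CPM in that order, against 438.8 at day 0. All 4 markers were seen in 7, 34 and 48 of these spots, against 44 of 84 at day 0. The spots of different days were thus not chosen at the same level. The sections differ in depth: at day 1 the chosen spots had a median of 4005 UMIs and 37 of 87 were chosen on a single marker UMI, against none at day 0. The receptor list was 6.16-fold higher in the marker-high spots at day 1 (5.07 to 7.43), 1.56-fold at day 3 (1.45 to 1.68) and 2.63-fold at day 7 (2.45 to 2.83). Chrna1 was then also high elsewhere, at 199 CPM in the other spots at day 3 and 24.8 in those of day 0. Chrng, with 1369 UMIs in the other spots at day 3, was lower in the marker-high spots there (0.533, 0.340 to 0.796).

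Prkar1a and Ache kept ratios above 1 in each section. Prkar1a was 4.37-fold, 3.32-fold and 5.93-fold higher at days 1, 3 and 7, and Ache 16.5-fold, 5.21-fold and 6.16-fold. Etv4 gave 3.11-fold at day 1 on 3 UMIs, with an interval that spans 1 (0.613 to 9.88), 2.17-fold at day 3 (1.32 to 3.38) and 17.5-fold at day 7 (13.1 to 23.2). The myelinating Schwann list was 4.77-fold, 3.48-fold and 3.01-fold higher. The clustering list stayed near 1, at 1.30 (0.886 to 1.85), 1.12 (0.951 to 1.32) and 0.907 (0.749 to 1.09). No difference between sections was tested, since each day is 1 section.

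The 20 genes ranked highest at day 0 were then read in the sections that had no part in their choice. All 20 were at least 1.5-fold higher in the marker-high spots at day 1, 17 at day 3 and 18 at day 7, where 17.5%, 4.12% and 3.02% of all genes with 200 UMIs in that section were that much higher. At days 1, 3 and 7 respectively, 13, 18 and 19 of these genes had 200 UMIs in the section, of which 13, 15 and 17 were that much higher. Their median ratio was 5.60, 2.68 and 4.25. Lrtm1 was 26.2-fold higher at day 1 (16.6 to 40.9), 14.2-fold at day 3 (11.7 to 17.3) and 5.44-fold at day 7 (4.73 to 6.24). Sfrp5 gave 7.84-fold, 10.2-fold and 9.84-fold, and Kcnj12 5.46-fold, 10.1-fold and 8.98-fold. Kcne1l, first at day 0, had 3 UMIs in the eligible spots at day 1 and 50 at day 3, where its ratio of 2.64 had an interval that spans 1 (0.691 to 7.24), and was 12.6-fold higher at day 7 (8.89 to 17.8). Dlk1 gave no higher level at day 7 (0.984, 0.766 to 1.24). Of the 10 lowest genes at day 0, by contrast, 2, 3 and 3 were at least 1.5-fold lower at days 1, 3 and 7, where 7.45%, 22.3% and 16% of all genes with 200 UMIs were that much lower. With 200 UMIs in the section there were 6, 9 and 10 of these genes, of which 1, 3 and 3 were that much lower.

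**Figure D5:**
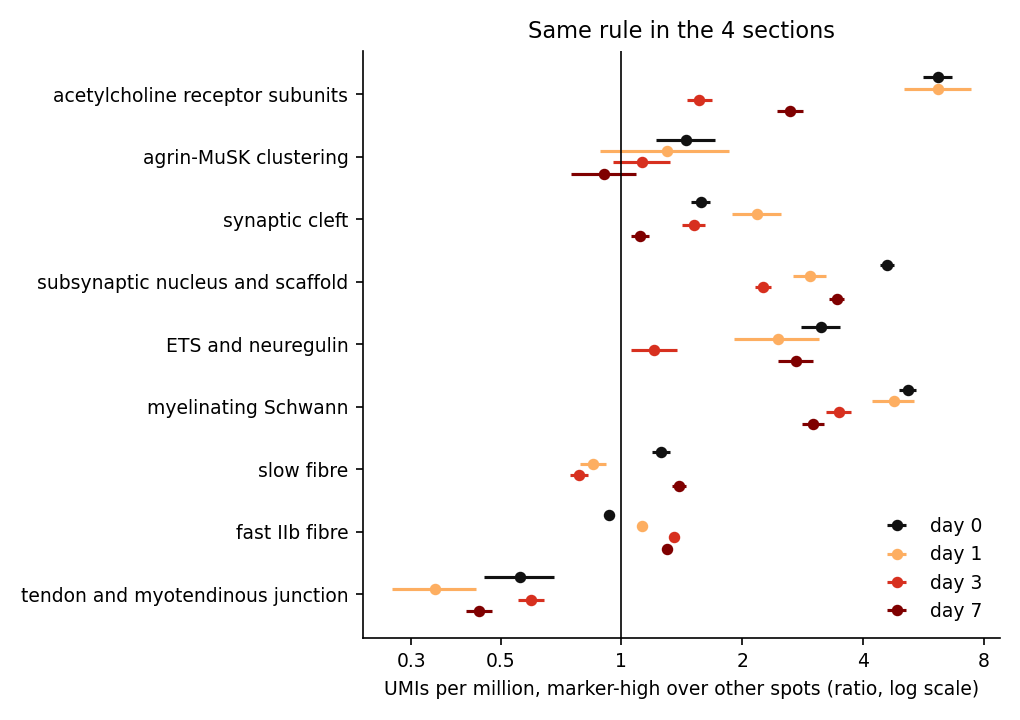
Ratio of CPM in marker-high over other spots (x axis, log scale, bars for the 95% counting interval) for 9 gene lists in the section of each day, with 84, 87, 121 and 118 marker-high spots. The receptor ratio is 6.15 and 6.16 at days 0 and 1 and 1.56 at day 3, while the clustering list lies between 0.907 and 1.45.

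Barcodes name positions on the capture array, and 1341 of them occurred in all 4 sections, so a shared barcode is not a shared spot of tissue.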

How the data were processed

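The authors deposited unnormalized UMI counts for each gene in each capture spot, from 10x Genomics software. The count table header names Space Ranger 1.2.0, the labels name Cell Ranger 5.0.0, and the study's methods name another version. The build in the submitters' processing notes is mm10. The day 0 table held 43871586 UMIs over 2107 spots and 32285 features.

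Counts were summed over the junction spots and over the other spots, divided by their UMI totals (CPM), and compared as a ratio with an exact conditional interval (95%; Poisson intervals for levels, Clopper-Pearson for shares). Genes were counted from 200 UMIs and called past 1.5-fold. Named genes were all genes of the 24 lists (153 genes) and, from 500 UMIs and without mitochondrial genes and the 4 markers, the 20 highest and 10 lowest ratios. Some of these genes are not reported here. Spots under 2000 UMIs were left out. Spot positions and images were not used here, no doublet caller was run, and no test was possible with 1 section per day. The ratio code was tested on simulated data. The members and lists were chosen with earlier results of these data known. TMM factors came from edgeR 4.0.16 and size factors from DESeq2 1.42.0 (R 4.3.3, neither used for a test), intervals from SciPy 1.17.1, tables from pandas 2.3.3 and NumPy 2.4.6, and plots from matplotlib 3.10.9, under Python 3.11.15. Alternatives are given in the closing section.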

Additional observations from a re-analysis of the deposited data

Results flagged for a closer look

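The fibre type lists pointed one way in the uninjured section and the other way in some sections of injured muscle, with counting intervals on opposite sides of 1. The slow fibre list was 1.26-fold higher in the junction spots at day 0 and lower in the marker-high spots at day 1 (0.849) and day 3 (0.784), while at day 7 it was higher again (1.39), on the same side as at day 0. The fast IIb list was 0.930-fold at day 0 and higher in the marker-high spots at day 1 (1.13), day 3 (1.36) and day 7 (1.30). The adult myofibre list, which is not specific to a fibre type, also changed side. It was 0.892-fold at day 0 and 0.88-fold at day 1, but 1.404-fold at day 3 and 1.165-fold at day 7. The fibre type ratios were not set against it, so a shift of fibre type apart from fibre transcripts in general was not tested. These differences between sections were not tested, since each day is 1 section, and the slow fibre value of day 0 rests on 1 spot.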

How the results depend on the processing

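The ratios are given below in the order receptor and clustering, cleft and subsynaptic, Schwann and axon, slow fibre, fast IIb fibre, and a marker chosen by the other 3 is named. Apart from the slow fibre list, no ratio of these lists or held-out markers crossed 1 under any alternative run. With the 90th percentile as threshold they were 2.61, 2.07, 3.76, 1.33 and 0.971, with Chrne 12.3, Colq 12.3, Ufsp1 7.75 and Etv5 9.32, and 394 genes were higher and 80 lower. With the 98th they were 4.70, 3.59, 5.72, 0.976 and 0.905, with Colq 19.6, Ufsp1 14.6 and Etv5 18.1, 1556 genes higher and 557 lower, and the intrafusal list at 0. TMM factors gave 3.38, 2.44, 4.28, 1.09 and 0.806, with Chrne 13.8, Ufsp1 9.82, the fibroblast list 0.920, and 414 genes higher and 603 lower. DESeq2 size factors gave 3.39, 2.45, 4.29, 1.09 and 0.808, with Chrne 13.8, Ufsp1 9.84, the fibroblast list 0.923, and 419 and 592 genes. The mean of single spots gave 3.24, 2.39, 4.12, 1.17 and 0.963, with Chrne 11.4, Colq 13.1, Ufsp1 8.79 and Etv5 9.50, and 615 genes lower.

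Spots with at least 5000 UMIs gave 4.60 for Schwann and axon and 0.943 for fast IIb. The score without Chrne gave 0.961 for fast IIb, without Ufsp1 5.28 for Schwann and axon and 0.912 for fast IIb, and without Etv5 4.70 for Schwann and axon, 0.816 for slow, 0.963 for fast IIb and 0.278 for the intrafusal list. Reweighting by depth gave 1.14 for slow and 0.947 for fast IIb, and reweighting by slow fibre share gave 4.61 for Schwann and axon and 0.931 for the IIa gene, and was not run for the slow and fast fibre lists. The tendon list was 1.08 at the 90th percentile. Without a low-count filter 3358 genes were higher and 5180 lower, from 500 UMIs 375 and 63, and at 2-fold 183 and 84.

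Chosen after seeing the data, leaving out the myelin-rich junction spots gave 3.60, 2.59 and, for slow, 0.888. The lists without Chrna1 and without Prkar1a gave 1.83 and 1.90. Without the spot with most slow fibre UMIs the slow list was 0.970, and without the one with most intrafusal UMIs slow was 1.18, fast IIb 0.937 and the intrafusal list 0.538. Without the spot with most adipocyte UMIs the adipocyte list was 1.03. The cause of these shifts was not tested. No paired analysis was possible because each day is 1 section. Depth limits the junction spots under 10000 UMIs and the genes under 200 UMIs, such as Musk, Lrp4, Chrnd and Chrng.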

Other observations

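Over whole sections, the junction genes differed between days, with 1 section a day and no replicate. Levels are in counts-per-million (CPM) and in the order of days 0, 1, 3 and 7. Kcne1l stood at 16.5, 0.179, 0.891 and 3.85. Chrne was at 20.6, 5.25, 7.82 and 23.0 and Ufsp1 at 42.1, 13.6, 22.5 and 35.7, so both were lowest at day 1. Chrna1 took another course, at 35.8, 24.2, 203 and 140, as did the foetal subunit gene Chrng at 0.889, 0.298, 24.8 and 11.5 and Ncam1 at 5.95, 5.48, 33.2 and 29.9. Prkar1a varied least of these genes, between 144 and 217.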
